A study of Mus musculus with 235 samples.

Results

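The TSC22 domain family was followed across 8 punched regions of the mouse brain, with Tsc22d3, which encodes the glucocorticoid-induced leucine zipper GILZ, as its steroid-responsive member. The 4 family genes Tsc22d1, Tsc22d2, Tsc22d3 and Tsc22d4 were taken by symbol from a count table of 27998 genes, and all 4 were tested in all 8 regions. The animals were 30 male C57Bl/6 mice, 3 months old and housed in groups. Of these, 15 received 10 mg per kg of dexamethasone, a synthetic agonist of the glucocorticoid receptor, by intraperitoneal injection, and the other 15 received 0.9% saline (vehicle). After 4 h the brains of both arms were perfused and the regions were punched from coronal sections. Each library held 1 punch of 1 animal, and its region is named as the labels write it (AMY, CER, PFC, PVN, dCA1, dDG, vCA1 or vDG).

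Proteins of this family share a short TSC box followed by a leucine zipper, through which they pair with themselves and with each other. Glucocorticoids bind the glucocorticoid receptor, which enters the nucleus and activates Tsc22d3 directly in many tissues. GILZ then binds NF-kappaB and AP-1 subunits and damps their activity. TSC22D1 was first found as a transcript induced by TGF-beta. The long forms of TSC22D1, TSC22D2 and TSC22D4 bind the pseudokinase NRBP1 and act with WNK kinases in the control of cell volume.

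In the coordinates of the count table (GRCm38), Tsc22d3 (ENSMUSG00000031431) lay at chrX:140539528-140600659 on the minus strand. Tsc22d1 (ENSMUSG00000022010) spanned chr14:76414961-76507765, Tsc22d2 (ENSMUSG00000027806) chr3:58414715-58466783 and Tsc22d4 (ENSMUSG00000029723) chr5:137745730-137768450, all on the plus strand. No exon of a member overlapped an exon of another gene, and no stretch of 75 bases, the read length, was shared with another member or another annotated gene. The libraries read the 3′ end of transcripts, so the long and short forms of a gene were counted together.

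RefSeq promoter windows (GRCm38.p6, 250 bases before to 50 after each start) were at hand for 3 starts of Tsc22d3 and 5 of Tsc22d1. Windows of the other members were not used here. The parts of the Tsc22d3 windows that lie outside annotated exons are printed with 1 of the 4 such stretches of Tsc22d1, chosen because it holds the hexamer searched for. Capitals mark the hexamer bound by 1 unit of the receptor pair, AGAACA, or its complement on the other strand, TGTTCT.
Tsc22d3, chrX:140600660-140600772, minus strand: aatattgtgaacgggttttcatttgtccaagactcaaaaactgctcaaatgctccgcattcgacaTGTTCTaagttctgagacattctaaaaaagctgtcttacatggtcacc
Tsc22d3, chrX:140548572-140548821, minus strand: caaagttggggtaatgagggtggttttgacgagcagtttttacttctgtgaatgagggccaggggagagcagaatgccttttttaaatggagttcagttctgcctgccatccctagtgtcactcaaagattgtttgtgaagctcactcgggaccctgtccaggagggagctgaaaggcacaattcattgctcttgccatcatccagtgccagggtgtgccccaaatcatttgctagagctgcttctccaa
Tsc22d3, chrX:140542669-140542845, minus strand: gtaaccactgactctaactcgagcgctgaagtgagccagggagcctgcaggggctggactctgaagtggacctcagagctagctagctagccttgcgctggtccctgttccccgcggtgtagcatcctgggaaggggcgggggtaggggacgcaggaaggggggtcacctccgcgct
Tsc22d1, chr14:76503976-76504213, plus strand: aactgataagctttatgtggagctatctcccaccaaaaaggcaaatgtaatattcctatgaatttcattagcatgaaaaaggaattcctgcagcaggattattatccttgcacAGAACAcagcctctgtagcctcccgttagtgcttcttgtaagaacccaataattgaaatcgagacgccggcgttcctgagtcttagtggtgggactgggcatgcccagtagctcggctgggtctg

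Both strands of the windows were searched for the hexamer AGAACA, the full palindrome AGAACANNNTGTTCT, which holds the hexamer, and a looser core GNACANNNTGTNC. The hexamer was found once in a Tsc22d3 window, 185 bases before that start, and once in a Tsc22d1 window, 137 bases before that start. It is common, with a match in 19.0% of the 32851 windows of all genes. Neither the palindrome (0.00913% of windows) nor the core (0.475%) occurred in a window of either gene, which concerns only these letters in these 300 bases.

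The libraries held 268538 to 1451422 counts each (median 742957) in 16 groups of 13 to 15 animals, and all 8 regions were present for 26 animals. Levels are given as CPM, counts scaled to a common library total with 1 scaling over all libraries. RNA integrity numbers ran from 2.2 to 9. Markers partly departed from the region names. Oxt and Avp, peptide genes of the hypothalamus, had their highest vehicle means in PVN (272 and 85.1 CPM). Prox1, a gene of dentate granule cells, had its highest vehicle mean in dCA1 (515 CPM), with 456 CPM in dDG. No vehicle library of CER had a count of Gabra6, which marks granule neurons of the cerebellum. Conversely, 5 libraries of vCA1 and vDG held over 100 CPM of the cerebellar genes Gabra6, Pcp2 and Cbln3 together. Without these 5 libraries, Tsc22d3 still rose in vCA1 by 1.31 and in vDG by 1.23 on the log2 scale. The tissue was bulk, so fewer cells of a type and less RNA per cell cannot be told apart.

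The first comparison asked how the family answered the steroid in each region. Tsc22d3 rose in 8 of 8 regions, from 1.80-fold in CER to 2.62-fold in dCA1, and was higher after dexamethasone in 115 of 115 pairs of libraries with the same region and animal number. Tsc22d1 rose in 6 regions by smaller amounts, 1.16-fold to 1.24-fold. Tsc22d2 and Tsc22d4 passed the test in no region and were not past an unadjusted p of 0.05 in any (edgeR), and none passed with DESeq2. With the replicate number as a block, Tsc22d4 passed in dCA1 (log2 0.28, edgeR adjusted p 0.033). Over all alternative settings its log2 value there ran from 0.04 to 0.29, and no other setting gave a call. Calls rest on edgeR's quasi-likelihood test with an adjusted p under 0.05 over all genes of the region. Among all genes tested, the share called higher was 2.33% in dDG, 2.57% in dCA1, 2.64% in vDG, 3.41% in vCA1, 3.54% in AMY, 3.57% in PVN, 3.86% in PFC and 3.9% in CER. Only 70 of 7924 genes (0.883%) rose past the threshold in all 8 regions.

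**Figure D1:**
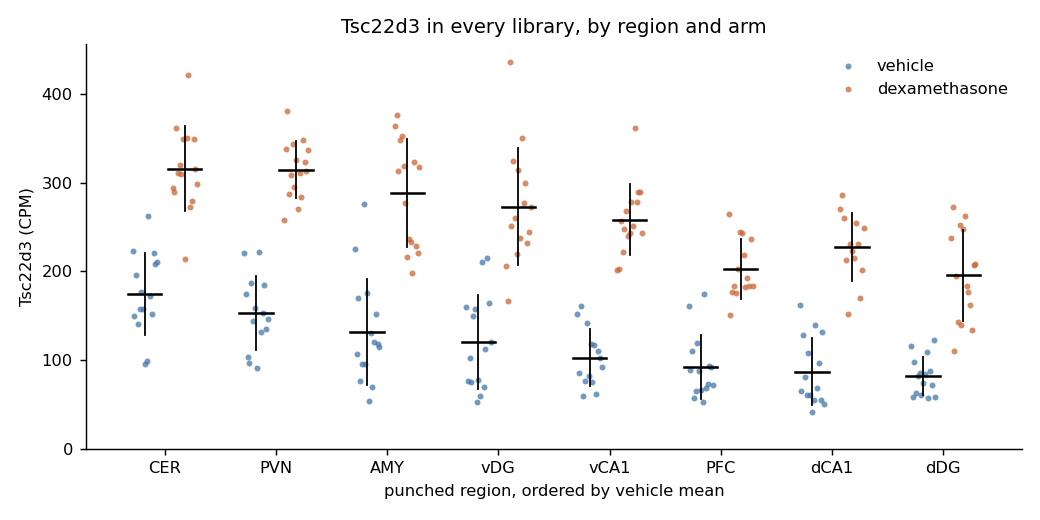
Tsc22d3 level (CPM, linear axis from 0) in each library by region, vehicle in blue and dexamethasone in orange, with the group mean as a horizontal bar and ± 1 SD as a vertical bar. The arms are apart in PVN and vCA1 and overlap by a few libraries elsewhere, and the vehicle levels are highest in CER and PVN and lowest in dCA1 and dDG.

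In PVN, Tsc22d3 ran from 91.1 to 222 CPM in the vehicle libraries (median 149) and from 258 to 380.1 CPM in the dexamethasone libraries (median 313). In vCA1 it ran from 59.5 to 161 CPM after vehicle (median 97.3) and from 202 to 362 CPM after dexamethasone (median 251). In these 2 regions every dexamethasone library lay above every vehicle library, which held for 0.367% of the genes tested in PVN and 0.274% in vCA1. The fold changes were 2.08 in PVN (log2 1.06 ± 0.10, SE, edgeR adjusted p 3.56e-11) and 2.50 in vCA1 (log2 1.32 ± 0.12, adjusted p 4.88e-11).

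In dCA1, vehicle libraries held 41.6 to 162 CPM of Tsc22d3 (median 68.6) and dexamethasone libraries 152 to 286 CPM (median 230.2), and 12 of the 13 dexamethasone libraries were above all vehicle libraries. In dDG the vehicle range was 56.9 to 122 CPM (median 81.9) and the dexamethasone range 111 to 273 CPM (median 195), with 14 of 15 above all vehicle libraries. These regions had the lowest vehicle levels and the first and the third largest response, 2.62-fold (log2 1.39 ± 0.16, SE, edgeR adjusted p 2.26e-08) and 2.38-fold (log2 1.25 ± 0.13, adjusted p 1.55e-08). In vDG the vehicle range was 52.9 to 214 CPM (median 113) and the dexamethasone range 167 to 436 CPM (median 259.7), and 13 of 15 dexamethasone libraries were above all vehicle libraries. The fold change there was 2.32 (log2 1.21 ± 0.17, SE, edgeR adjusted p 4.24e-06).

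In PFC, Tsc22d3 ran from 53.0 to 175 CPM after vehicle (median 87.5) and from 150.4 to 264 CPM after dexamethasone (median 188), with 13 of 14 dexamethasone libraries above all vehicle libraries. In AMY it ran from 53.7 to 276 CPM after vehicle (median 118) and from 198 to 376 CPM after dexamethasone (median 313). The arms overlapped most in AMY, where 9 of 15 dexamethasone libraries were above all vehicle libraries. In CER the vehicle range was 95.4 to 262 CPM (median 172) and the dexamethasone range 214 to 421 CPM (median 311), with 14 of 15 above. The fold changes were 2.21 in PFC (log2 1.14 ± 0.13, SE, edgeR adjusted p 2.97e-09), 2.18 in AMY (log2 1.12 ± 0.16, adjusted p 1.19e-06) and 1.80 in CER (log2 0.85 ± 0.10, adjusted p 4.02e-08). Libraries were prepared on 4 plates and punched on 5 dates. Tsc22d3 was higher after dexamethasone within each of the 32 combinations of region and plate (log2 difference 0.66 to 1.99) and of region and date (0.58 to 1.70) that held at least 2 libraries of each arm. One date, with 1 vehicle animal, fell below that minimum.

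**Figure D2:**
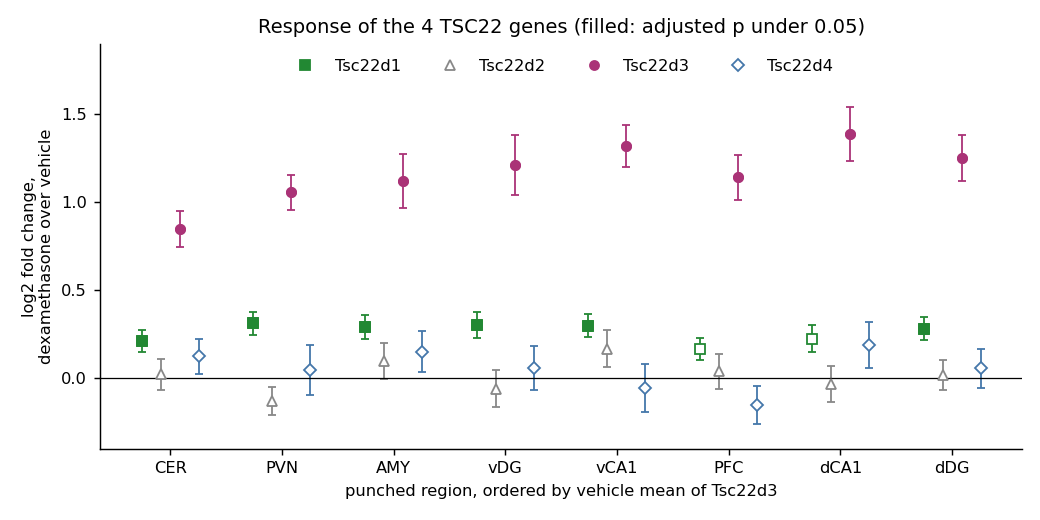
Log2 fold change of dexamethasone over vehicle for the 4 genes in each region, with the standard error as a bar and a filled symbol where the adjusted p was under 0.05. Tsc22d3 lies between 0.85 and 1.39, Tsc22d1 between 0.17 and 0.31, and the other two on both sides of 0.

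Whether the response itself differed between regions was tested as an interaction over all libraries. No member passed, against 1.17% of 11053 genes. For Tsc22d3 the test over all 8 regions gave F = 1.41 (edgeR p 0.201, adjusted p 0.999929), and none of its 28 pairs of regions passed (0.135% of such tests over all genes did). That fit did not include the animal, although the regions came from the same animals. With the animal as a block, F was 2.50 (adjusted p 0.412) and again 0 of 28 pairs passed. In the fit without the animal, the largest difference of Tsc22d3 was between CER and dCA1. The log2 response of CER minus that of dCA1 was -0.55 ± 0.21 (SE, edgeR p 0.00882, adjusted p 0.404). Tsc22d1, Tsc22d2 and Tsc22d4 also had 0 of 28 pairs past the threshold, with 0, 1 and 0 pairs past an unadjusted p of 0.05, against 3 for Tsc22d3. The order of regions by response is therefore a description.

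Levels between regions differed for all 4 genes among the vehicle libraries, as they did for 73.3% of 10451 genes (edgeR with the animal as a block). Tsc22d3 was highest in CER at 175 ± 46.1 CPM (SD, n = 15), followed by PVN at 153 ± 41.5 (SD, n = 14), AMY at 132 ± 59.8, vDG at 120.2 ± 53.3, vCA1 at 103 ± 32.4, PFC at 92.2 ± 35.9, dCA1 at 87.0 ± 38.2 and dDG at 81.9 ± 21.5 CPM. The highest and the lowest region differed 2.13-fold (edgeR adjusted p 7.04e-14), and 19 of 28 pairs of regions passed, against 31.4% of such tests over all genes. No region differed from its direct neighbour in this order past the threshold. After dexamethasone, CER and PVN were again highest, at 316 ± 47.6 and 315 ± 32.5 CPM (SD, n = 15 each), and dDG lowest at 196 ± 51.2 CPM (SD, n = 15), a 1.61-fold range in which 15 of 28 pairs passed (32.5% over all genes). CER and PVN differed there by 0.01 ± 0.10 on the log2 scale (SE, edgeR adjusted p 0.962).

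The treated unit was the animal, so each animal was also given 1 value, the mean over its regions of log2(CPM + 1) relative to the middle of each region's 2 group means. For Tsc22d3 the 15 vehicle animals had a mean of -0.61 (SD 0.41) and the 15 dexamethasone animals a mean of 0.61 (SD 0.06), a difference of 1.21. All 15 dexamethasone animals were above all vehicle animals (two-sided permutation p 1e-05, the smallest that 100000 resamples can give, 2e-05 adjusted over the 4 genes), a separation that 143 of the 7924 genes tested in all 8 regions showed (1.8%). For Tsc22d1 the difference was 0.26 and again all 15 dexamethasone animals were above all vehicle animals (permutation p 1e-05, adjusted 2e-05), although the arms overlapped in each single region. The differences of 0.02 for Tsc22d2 (permutation p 0.485) and 0.01 for Tsc22d4 (permutation p 0.832) did not pass. With only the 13 animals of each arm that had all 8 regions, the difference of Tsc22d4 was 0.09 (permutation p 0.0586, adjusted 0.0782). Dexamethasone animal 4, which had 6 regions and the lowest value of Tsc22d4 (-0.56), is not among these.

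The vehicle animals differed more from one another in Tsc22d3 than the dexamethasone animals did. Measured as the deviation from the group mean in log2(CPM + 1), averaged over an animal's regions, vehicle animals ran from -0.62 (animal 9, numbered within the arm as in the titles) to 0.68 (animal 1) and dexamethasone animals from -0.14 to 0.08. The SD between animals was 0.41 in the vehicle arm and 0.06 in the dexamethasone arm. A two-sided permutation test of the absolute deviations from each arm's median, chosen after these values were seen, gave p 2e-05 (0.00014 adjusted over 7 genes). Vehicle animals 1, 6 and 10 were above the group mean in 8 of 8 regions, and animals 4, 7, 9 and 11 were below it in 7 of 8.

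**Figure D3:**
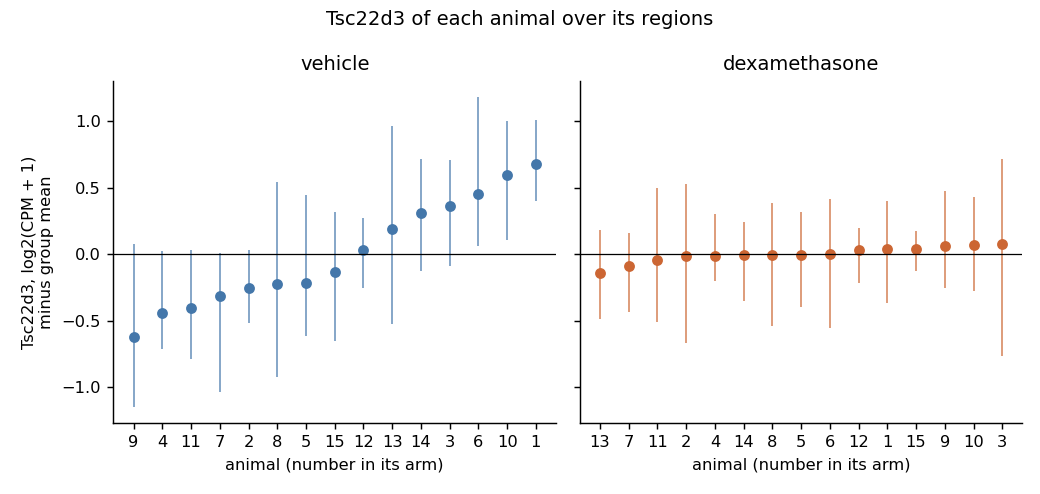
Deviation of Tsc22d3 from the group mean, in log2(CPM + 1), for each animal, with the dot as the mean over its regions and the line from its lowest to its highest region, animals sorted within each arm. Vehicle means span -0.62 to 0.68, whereas all dexamethasone means lie between -0.14 and 0.08.

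The regions of a vehicle animal moved together. Over the 28 pairs of regions, the correlation of Tsc22d3 between vehicle animals was positive in all 28 and ran from r = 0.36 to 0.88, with a median of 0.61. In the dexamethasone arm it ran from -0.72 to 0.44 with a median of -0.05. These correlations rest on 13 to 15 animals each and share the animals, and are given as a description. Differences between animals made up a fraction of 0.594 of the vehicle variance of Tsc22d3 and were estimated at -0.0912, below 0, in the dexamethasone arm. The coefficient of variation between libraries of a region was 26.2% to 45.4% after vehicle and 10.3% to 26.2% after dexamethasone, while counting error alone gives 8.84% to 13.1% and 6.43% to 8.64%.

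The same spread was measured for 3 genes of glucocorticoid signalling. Sgk1, a kinase of salt and stress signalling that acts with GILZ on the epithelial sodium channel, had an SD between animals of 0.60 after vehicle and 0.13 after dexamethasone (permutation p 8e-05, adjusted 0.000187). Fkbp5, a co-chaperone that lowers the receptor's affinity for its ligand, had 0.32 and 0.09 (permutation p 7e-05, adjusted 0.000187). For Nr3c1, the receptor gene itself, the SDs of 0.15 and 0.12 were not shown to differ (permutation p 0.293, adjusted 0.41). For Tsc22d1 they were 0.08 and 0.03 (permutation p 0.0224, adjusted 0.0393). That call was lost with upper-quartile scaling (adjusted permutation p 0.0569) and with only the animals that had all 8 regions (adjusted permutation p 0.157). Tsc22d2 (adjusted permutation p 0.727) and Tsc22d4 (0.872) did not pass.

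Vehicle animals with more Tsc22d3 also had more Sgk1 (r = 0.85, rho = 0.87, permutation p 0.00012, adjusted over 12 relations 0.00072) and more Fkbp5 (r = 0.76, rho = 0.71, permutation p 0.00094, adjusted 0.00376). They had less Nr3c1 (r = -0.88, rho = -0.86, permutation p 3e-05, adjusted 0.00036). Without the 2 animals farthest from the median of Tsc22d3, r was 0.88 for Sgk1, 0.63 for Fkbp5 and -0.85 for Nr3c1. Each punching date held 1 to 4 vehicle animals, too few for values within a date. After subtraction of the date means, r was 0.97 for Sgk1, 0.80 for Fkbp5 and -0.92 for Nr3c1 (adjusted permutation p 0.00192, 0.011 and 0.00192).

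Among its relatives, Tsc22d3 had r = 0.58 with Tsc22d1 over the vehicle animals (rho = 0.46), which did not pass (permutation p 0.0237, adjusted 0.0711). This r was 0.40 without the 2 animals farthest from the median of Tsc22d3 and 0.53 in the animals with all 8 regions. After subtraction of the date means it was 0.83 (adjusted permutation p 0.00192). Tsc22d3 had r = -0.16 with Tsc22d2 (adjusted permutation p 0.826) and r = 0.29 with Tsc22d4 (adjusted permutation p 0.578). In the dexamethasone arm r was 0.14 for Sgk1 (rho = 0.40), 0.10 for Fkbp5 (rho = 0.05) and -0.06 for Nr3c1 (rho = 0.29). None of the 6 relations passed (smallest adjusted permutation p 0.192). Without the 2 dexamethasone animals farthest from the median of Tsc22d3, r was 0.46 for Sgk1, 0.07 for Fkbp5 and 0.57 for Nr3c1. The difference between the arms in these correlations was not tested.

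**Figure D4:**
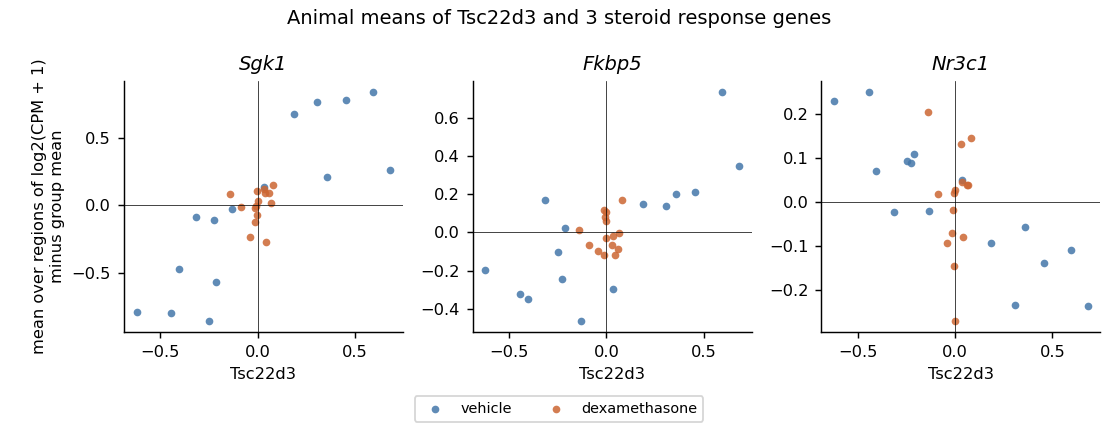
Animal means of Sgk1, Fkbp5 and Nr3c1 against Tsc22d3, each as the mean over regions of log2(CPM + 1) minus the group mean, 15 vehicle animals in blue and 15 dexamethasone animals in orange. Vehicle animals spread along a rising line for Sgk1 and Fkbp5 and a falling one for Nr3c1, and dexamethasone animals gather near 0 on the Tsc22d3 axis.

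Tsc22d1, the member first linked to TGF-beta, rose by smaller amounts than Tsc22d3 in every region where it was called. In vCA1 it ran from 331 to 483 CPM after vehicle (median 446) and from 477 to 622 CPM after dexamethasone (median 526), and 14 of 15 dexamethasone libraries were above all vehicle libraries. In PVN it ran from 309.6 to 465 CPM after vehicle (median 374) and from 388 to 569 CPM after dexamethasone (median 471), and the arms overlapped more, with 8 of 15 above. The log2 fold changes were 0.30 ± 0.07 in vCA1 (SE, edgeR adjusted p 0.00206) and 0.31 ± 0.07 in PVN (adjusted p 0.000717).

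In the other 4 regions where Tsc22d1 passed, it rose by 0.30 in vDG (edgeR adjusted p 0.00979), 0.29 in AMY (0.0047), 0.28 in dDG (0.00415) and 0.21 in CER (0.029). The call in CER was lost without a filter on low counts (adjusted p 0.0506). In dCA1 and PFC the log2 fold changes of 0.23 (95% interval 0.07 to 0.38, adjusted p 0.107) and 0.17 (0.04 to 0.29, adjusted p 0.119) missed the threshold. With DESeq2, dCA1 passed at 0.0336. Tsc22d1 was higher after dexamethasone in 107 of 115 pairs of libraries, and within all 32 combinations of region and plate and 31 of 32 of region and date, counted over combinations with at least 2 libraries of each arm.

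Across regions, Tsc22d1 was highest in PFC at 508 ± 51.7 CPM (SD, n = 15) and lowest in PVN at 383 ± 41.3 (SD, n = 14) and CER at 376 ± 46.6 CPM (SD, n = 15) after vehicle. Neighbours in the order did not differ past the threshold except vCA1, at 439 ± 47.0 CPM (SD, n = 14), over PVN (log2 difference 0.20 ± 0.07, SE, edgeR adjusted p 0.00927). PVN and CER, the highest regions for Tsc22d3, were the lowest for Tsc22d1. After dexamethasone PFC was again highest and CER lowest, with PFC at 570 ± 53.1 CPM (SD, n = 14) and CER at 433 ± 27.6 CPM (SD, n = 15).

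**Figure D5:**
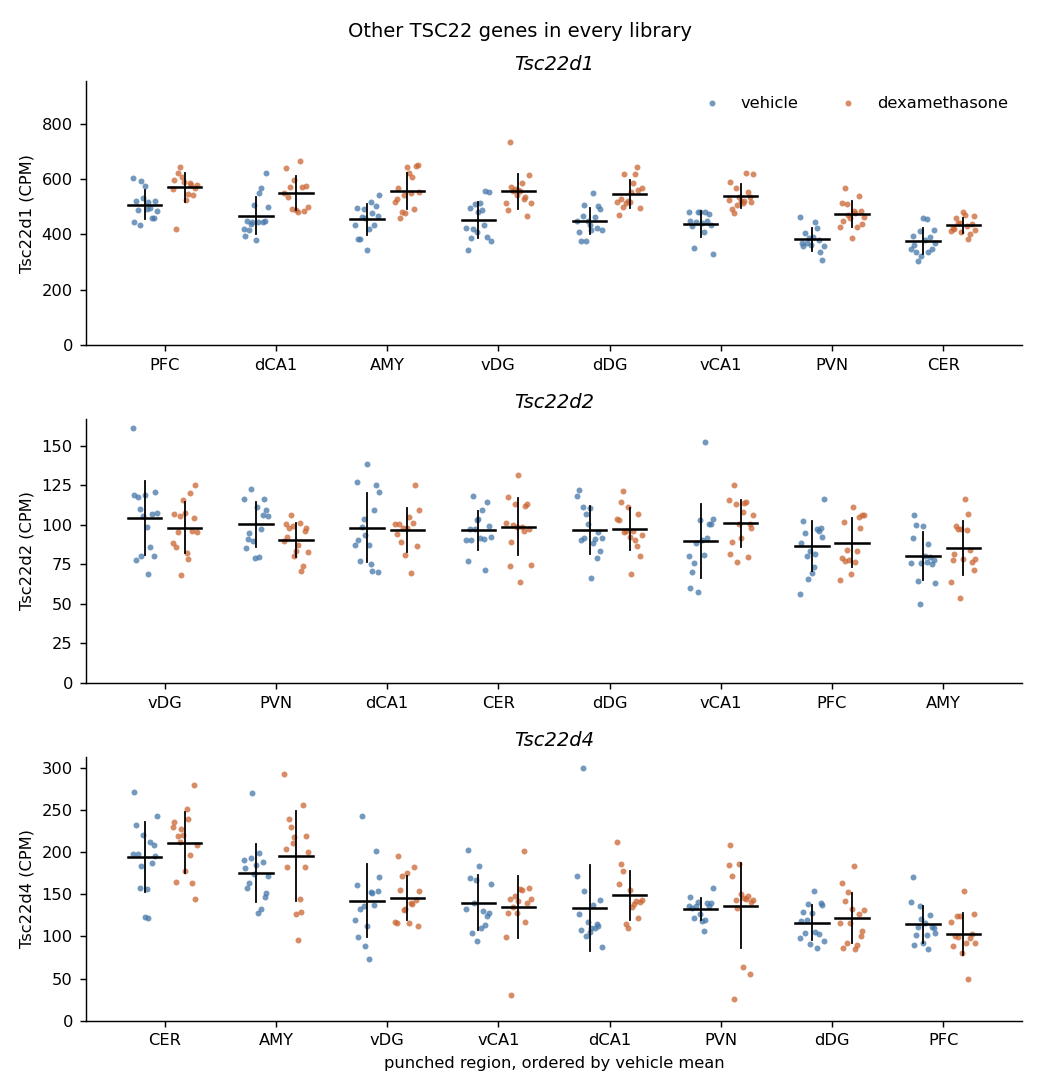
Tsc22d1, Tsc22d2 and Tsc22d4 level (CPM, linear axes from 0) in each library by region, vehicle in blue and dexamethasone in orange, with group mean and ± 1 SD as black bars. Tsc22d1 is shifted upwards after dexamethasone, whereas the arms of Tsc22d2 and Tsc22d4 overlap in every region, and single libraries of Tsc22d4 in PVN and vCA1 stand low.

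Tsc22d2, a long-form member that binds NRBP1, had log2 fold changes from -0.13 in PVN (95% interval -0.28 to 0.03) to 0.17 in vCA1 (-0.04 to 0.38). Its adjusted p was at least 0.51, and it was higher after dexamethasone in 55 of 115 pairs. Vehicle means lay between 80.2 ± 15.0 CPM in AMY and 104 ± 23.4 CPM in vDG (SD, n = 15 each). They differed among regions (edgeR adjusted p 0.0107), with 6 of 28 pairs past the threshold, but no neighbours in the order did.

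Tsc22d4, which also binds NRBP1, had log2 fold changes from -0.15 in PFC (95% interval -0.36 to 0.06) to 0.19 in dCA1 (-0.06 to 0.44) and was higher after dexamethasone in 64 of 115 pairs. Its vehicle mean was highest in CER at 194 ± 41.6 CPM and AMY at 176 ± 34.2 CPM, and lowest in PFC at 115 ± 22.0 CPM (SD, n = 15 each). The step from AMY to vDG (142 ± 43.2 CPM, SD, n = 15) passed the threshold between neighbours (log2 difference 0.33 ± 0.11, SE, edgeR adjusted p 0.0208), and CER differed from PFC 1.69-fold (adjusted p 1.70e-09). In PVN the dexamethasone libraries spread more than the vehicle libraries, from 26.1 to 208 CPM (median 144) against 106 to 158 CPM (median 136). The low end came from 3 libraries, animals 4, 13 and 9 of the dexamethasone arm, at 26.1, 55.9 and 63.7 CPM.

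The wider pathways were read from gene lists. In the list of partners and effectors of GILZ, 17 of 18 genes could be tested, and 24 of 122 gene-by-region tests were called higher and 1 lower, against 3.23% and 1.94% over all genes. The median log2 fold change of the list lay between -0.03 and 0.08 by region, close to the -0.02 to 0.00 of all genes tested. The calls came from few genes. Sgk1 rose in 8 regions (log2 0.64 to 1.27), and Cebpb, a transcription factor of inflammation and fat cell formation, rose in 6 (0.24 to 1.03 over all 8, not past the threshold in dCA1 and dDG). Foxo3 rose in 5, Nedd4l, a ubiquitin ligase of the sodium channel, in 3, and Foxo1 in 2.

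Jun, an AP-1 subunit, fell by 0.52 on the log2 scale in dCA1, the 1 call of the list in that direction, and its log2 fold changes over the 8 regions ran from -0.52 to 0.34 (median 0.01). The NF-kappaB genes of the list, Rela and Nfkb1, were called in no region. Rela and Fos were abundant enough for the test in 1 region each, and Pparg in none. These genes and Foxo3, Nedd4l, Foxo1 and Jun were outside the rule for named genes and were chosen after their values were seen.

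Of the NRBP and WNK kinase list, 10 of 13 genes could be tested, and 1 of 80 gene-by-region tests was called, Wnk2 higher in dCA1 (36.5 ± 10.9 CPM, SD, n = 15, to 57.5 ± 16.4 CPM, SD, n = 13; log2 0.65 ± 0.15, SE, edgeR adjusted p 0.00419). With the replicate number as a block, 2 tests of the list were called higher and 1 lower. Nrbp2, an NRBP1 relative, was called in no region, with log2 fold changes from -0.29 to 0.03. In the TGF-beta list, 3 of 61 tests were called higher and 3 lower, from 9 of 11 genes, against 3.23% and 1.94% over all genes. With the replicate number as a block the counts were 5 and 5. The transducer Smad3 was higher in PVN and vCA1 and lower in dCA1, the ligand Tgfb3 was higher in CER (log2 1.19), the 1 region where it could be tested, the ligand Tgfb2 lower in CER and the receptor Tgfbr1 lower in dCA1. The call of Smad3 in PVN was lost with upper-quartile scaling (edgeR adjusted p 0.0543) and with date and plate as factors (0.0516). Tgfb2 and Tgfbr1 were chosen after their values were seen.

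In the list of steroid receptors and early glucocorticoid targets, 41 of 63 tests were called higher and 8 lower, against 3.23% and 1.94% over all genes. The list was picked for genes known to respond and earlier results of these data were known. Fkbp5 rose by 1.65 to 2.79 on the log2 scale, Ddit4, an inhibitor of mTOR signalling, by 0.96 to 1.72, the transcription factor Zbtb16 by 0.82 to 2.21 and the transcription factor Klf9 by 0.36 to 0.59, each in 8 of 8 regions. Sgk1 is also in this list, so its 8 calls higher count here and in the list of partners and effectors of GILZ. Nr3c1 fell in 8 of 8, with log2 fold changes from -0.89 to -0.50. Per1, a clock gene, was called in 1 of 8 regions (PFC) and Nr3c2, the mineralocorticoid receptor gene, in 0 of 7. These 2 were chosen after their values were seen.

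Cell type markers were set beside these results, with 1.94% of gene-by-region tests over all genes called lower. Summed markers of microglia had medians of 262 to 520.2 CPM by region after vehicle and 158 to 300.1 CPM after dexamethasone, lower in 8 of 8 regions. All 16 of 42 gene-by-region tests called lower came from Cx3cr1 (log2 -2.39 to -2.02) and P2ry12 (-1.17 to -0.70), while Csf1r and C1qa were called in no region. Tmem119 could be tested in 2 regions, where it was lower (log2 -0.46 and -0.43) but not called (smallest edgeR adjusted p 0.11). Markers of endothelium had medians of 313 to 459.7 CPM and 227 to 310.1 CPM, also lower in 8 of 8. All 16 of 32 tests called lower came from Flt1 (log2 -0.80 to -0.55) and Slco1a4 (-0.93 to -0.62), while Pecam1 and Ly6c1 were called in no region and Ly6c1 had values of 0.02 to 0.33. Of 48 tests each, astrocyte and oligodendrocyte markers had 1 called lower and neuronal markers none (edgeR). Dentate markers had 2 of 38 tests called higher and 4 lower, and amygdala markers 8 of 26 higher and 1 lower. Over all genes 3.23% were called higher. In vCA1 the dentate markers Dsp and Npnt were higher and the choroid plexus marker Ttr lower. Summed cortex markers also had lower medians in 8 of 8 regions, astrocyte markers in 7 and the remaining lists in 1 to 6. The part of these markers and of their cell types in the Tsc22d3 result was not tested. Oligodendrocyte markers were highest in CER, with a vehicle median of 13724 CPM against 2027 CPM in PFC, and CER was also the region highest in Tsc22d3 and Tsc22d4. The part of oligodendrocytes in that order was not tested.

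The genes whose pattern was most like that of a member were taken among 7924 genes by Pearson's r. Over the 16 group means, which share animals and libraries, Tsc22d3 was most like Lfng (0.97), Rhou (0.97), Plcd4 (0.96), Mfsd2a (0.96) and Ccdc141 (0.96), against 0.82 for the 99th percentile of all genes. Lfng is a modifier of Notch receptors, Rhou a small GTPase and Mfsd2a a lipid transporter of the blood-brain barrier. These were called higher after dexamethasone in 8 of 8 regions, except Ccdc141 in 7, against 0.883% of the 7924 genes called higher in all 8. The group means include both arms, so this choice favours genes that rise after dexamethasone, and the calls are no separate result. Over all libraries after subtraction of the group means, the genes most like Tsc22d3 were Mt2 (0.68), a metallothionein, Sgk1 (0.64), Selenop (0.62), Gjb6 (0.61), an astrocyte connexin, and Pnpla2 (0.59), a triglyceride lipase.

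Tsc22d1 was most like Rnf169 (0.92), Nudt16l1, Ctdspl, Mertk and Fam171a1 (0.89) over the group means, and like Atp5g3 (0.47), Atp6v1f, Arf3, Fkbp1a and Cdc42 (0.43) over the centred libraries. Tsc22d2 was most like Hmgn5 (0.81), Tcp11l2, Polr2a, Serpinb6a and Fam19a2 (0.74) over the group means, and like the nuclear RNAs Malat1 (0.62) and Kcnq1ot1 (0.61), then Zranb2, Pnisr and Nbea (0.58), over the libraries. Tsc22d4 was most like Wipf1 (0.95), Zcchc24, Pkp4, Sys1 and Gltp (0.93), and over the libraries like Ost4 (0.64), the astrocyte connexin Gja1 (0.63), Rab31 and Ctnnd1 (0.59). Among the members, Tsc22d3 and Tsc22d4 were the closest pair over the centred libraries (r = 0.39, 115th of the genes by likeness to Tsc22d3), and Tsc22d1 and Tsc22d2 the farthest (r = -0.28).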

How the data were processed

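Counts per gene and library were deposited as 1 table of whole numbers. Per the submitters' processing notes, the tools were cutadapt, UMI-tools 0.5.4, STAR 2.6.0a and featureCounts 1.6.4 on mm10, and per the labels' protocols the libraries were single-end QuantSeq 3′ forward libraries with molecular identifiers. The use of strand in counting is not given in the sources used here. The authors also deposited log2 variance-stabilised values made with DESeq2 1.30.1 for 228 of the libraries. They served as an alternative input. All per-sample columns were used (0 left out), and symbols were found for 27645 genes.

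Groups came from the sample titles. Genes passing filterByExpr were scaled by TMM and tested with edgeR 4.0.16 (R 4.3.3) quasi-likelihood fits, within a region for the response, over all libraries for the interaction, and with an animal block for levels between regions. Adjustment was by Benjamini-Hochberg across every gene tested, at a threshold of 0.05. The standard error is the absolute log2 fold change over the square root of F. CPM used 1 TMM scale over all libraries, and values per animal used log2(CPM + 1). Permutation tests were two-sided with 100000 resamples (scipy 1.17.1). The test of levels between regions in the dexamethasone arm, the spread between animals, the subtraction of date means and the exclusion of 5 libraries were added after the data were seen. The fits were tested on simulated data.

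The members and lists were chosen with earlier results of these data known. Named are the 4 members, the members of a list called in at least 6 of 8 regions (where fewer than 2, the 2 with the smallest median p), and per member the 5 most alike genes over group means and over centred libraries. A few genes that these rules name are not reported here. Alternatives were DESeq2 1.42.0, upper-quartile scaling, no filter, at least 10 counts in every library, a replicate block, date and plate, RIN, the dentate level, limma 3.58.1 on the deposited log2 values, only the libraries of those tables, only animals with all 8 regions, and a pseudocount of 5. Within groups the closest libraries differed by a chi-square of 1.34 per degree of freedom, so none was counted as a duplicate. Counts ran from 12 to 703 per member and library.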

Additional observations from a re-analysis of the deposited data

How the results depend on the processing

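Of 761 alternative values for the members, lists and relations, 743 were counted as unchanged. Tests among these kept their side of the threshold and, where they had one, their direction, while counts of calls could shift somewhat. For the vehicle level of Tsc22d3, 13 to 18 of 28 pairs of regions passed under the alternatives (reported: 19). Tsc22d3 passed in every region and Tsc22d2 in none under every alternative run. Without a filter on low counts Tsc22d1 in CER was at 0.22 (adjusted p 0.0506), and with DESeq2 Tsc22d1 in dCA1 at 0.23 (adjusted p 0.0336) passed. Tsc22d4 turned negative in PVN with limma on the deposited log2 values (-0.0454) and positive in vCA1 with the dentate level as a covariate (0.0125). Its spread between animals turned to larger after vehicle in the animals with all 8 regions (0.0218), which do not include dexamethasone animal 4. The spread difference of Tsc22d1 missed the threshold with upper-quartile scaling (0.0333, adjusted p 0.0569) and in the animals with all 8 regions (0.0294, adjusted p 0.157). Its correlation with Tsc22d3 over vehicle animals rose to 0.83 after subtraction of date means. With date and plate as factors 2 tests of the NRBP and WNK list were higher (reported: 1), and with DESeq2 1 was lower (reported: 0). Smad3 in PVN missed the threshold with upper-quartile scaling (0.32, adjusted p 0.0543) and with date and plate (0.33, adjusted p 0.0516). The cause was not tested.

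Same-numbered animals of the arms shared the plate in 115 of 115 pairs of libraries and the punching date in 109. Their deviations correlated over 0.1 in 77 of 115 pairs (median r 0.16), and 33 of 115 vehicle libraries correlated best with their own number. With the replicate block, Tsc22d4 passed in dCA1 (0.28, adjusted p 0.033) and turned negative in PVN (-0.0560), the NRBP and WNK list had 2 tests higher and 1 lower, and the TGF-beta list 5 higher and 5 lower (reported: 3 and 3). The block changed no other call of a member. The response per animal of Tsc22d1 and Tsc22d3 still passed, with a permutation p of 9e-05 each (1e-05 without the block). The sources used here do not tie animals to cages or litters. Counts of Tsc22d2 and Tsc22d4 ran from 12 to 260 per library, and counting error gave a coefficient of variation of 7.92% to 13.4% where libraries varied by 9.87% to 38.3%.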

Other observations

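The vehicle spread of Tsc22d3 between animals was set beside RNA quality, depth and cell markers, in 14 relations chosen after that spread was seen. Over the 15 vehicle animals Tsc22d3 had r = -0.24 with the RNA integrity number (rho = -0.40, permutation p 0.407), -0.24 with the log2 library total (rho = -0.15, permutation p 0.389), and 0.33 with summed oligodendrocyte markers (rho = 0.26, permutation p 0.227). It had r = 0.29 with neuronal (rho = 0.33), 0.26 with astrocyte (rho = 0.32), 0.05 with endothelial (rho = 0.18) and -0.07 with microglial markers (rho = -0.03). The smallest adjusted permutation p of the 14 was 0.614, and 15 animals do not exclude a moderate relation.

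Tsc22d4 stood low in 2 libraries of the same dexamethasone animal. Animal 4 had 26.1 CPM in PVN (12 counts) and 30.8 CPM in vCA1 (19 counts), where the next lowest libraries of those groups held 55.9 and 98.8 CPM. In its other 4 libraries Tsc22d4 was at 239 CPM in AMY, 219 in CER, 142 in dDG and 155 in vDG.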
